A study of Mus musculus with 15 samples.

Results

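The Toll-like receptors Tlr1 to Tlr9 and their adaptor Myd88 were examined in the kidney transcriptomes of mice with adenine-induced chronic kidney disease (CKD). The 10 genes were taken by symbol from the 54532 genes of the deposited table, each matched by its Ensembl identifier to GENCODE M21 on GRCm38. The 15 libraries were 5 per group, 1 kidney sample of a separately numbered male C57BL/6 mouse each. The C group ate normal chow and received vehicle by gavage. The M group (CKD model) ate chow with 0.25% adenine for 4 weeks and received the same vehicle, and the AA group ate the same adenine chow and received asiatic acid, a plant triterpenoid, at 30 mg/kg each day for all 8 weeks. Mice entered at 8 weeks of age, and all groups ate standard chow in the second part of the study. The model is 1 strain and 1 sex with an injury from diet, and 1 dose of AA was sequenced. Each whole kidney sample mixes many cell types, so fewer cells of a type and less RNA per cell cannot be told apart.

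Toll-like receptors are membrane proteins that recognize conserved microbial molecules and some products of damaged cells. Tlr1, Tlr2, Tlr4, Tlr5 and Tlr6 act mainly at the cell surface, where Tlr2 pairs with Tlr1 or Tlr6 to bind lipopeptides, Tlr4 senses lipopolysaccharide and Tlr5 senses flagellin, whereas Tlr3, Tlr7, Tlr8 and Tlr9 sense nucleic acids in endosomes. All but Tlr3, which uses the adaptor Ticam1, can signal through Myd88 to NF-kB, and Tlr4 uses both adaptors. In the kidney, both resident and infiltrating macrophages and tubular cells are known to express members of the family.

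Values are FPKM, the reads counted on a gene per kilobase of its length and per fixed number of reads of its library. From the smallest steps of the FPKM values, 13647020 to 28884427 reads per library were recovered on genes, of which 2077628 to 13576597 lay outside the mitochondrial genome, with medians of 8894364 (C), 2770068 (M) and 3278813 (AA). Mitochondrial genes held 53.0 to 62.5% of the reads in C mice, 64.0 to 86.8% in M mice and 69.2 to 87.2% in AA mice. The FPKM of all genes summed to 263859 to 463739 (C), 412144 to 1171211 (M) and 460489 to 1481916 (AA). The deposited values thus had no common total, and its part in the differences between groups was not tested. M mice 1 to 3 stood apart: between 10068 and 12222 genes were listed above 0 in them, against 23040 and 25460 in M mice 4 and 5 and 18695 or more in every C and AA library. Among genes with few reads, 72.3 to 73.6% had an even read number in these 3 mice, against 58.0 to 65.7% in every other library. No batch in the labels separates M mice 1 to 3, and the cause was not tested. For some genes, values with and without these mice are therefore given. The tissue label was checked with 12 proximal tubule markers, whose summed FPKM ranged over 166 to 1309 (C), 20.5 to 77.8 (M) and 52.9 to 92.8 (AA), and none of the 12 was at 0 in every library of a group.

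Tlr1 and Tlr6 are neighbours and near-copies in part, which limits how their reads could be assigned. Tlr1 (ENSMUSG00000044827) lies on chromosome 5 from 64924679 to 64933563 on the minus strand, and Tlr6 (ENSMUSG00000051498) on chromosome 5 from 64952031 to 64960097 on the same strand. Of the 31-base words of the Tlr1 transcripts, 18.3% also occur in Tlr6, and 16.4% of the Tlr6 words occur in Tlr1. The longest stretch identical in both is 229 bases of coding sequence, in exon 3 of 3 of Tlr1 (GRCm38 chr5:64925537-64925765) and exon 2 of 2 of Tlr6 (chr5:64953828-64954056). It is shown, 5′ to 3′ on the coding strand, because a read that falls wholly inside it cannot be assigned to either gene by its sequence:
Tlr1 and Tlr6: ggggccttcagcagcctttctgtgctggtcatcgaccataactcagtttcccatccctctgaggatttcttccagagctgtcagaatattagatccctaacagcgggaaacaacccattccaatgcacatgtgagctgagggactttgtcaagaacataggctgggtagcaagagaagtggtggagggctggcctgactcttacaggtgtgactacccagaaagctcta
Of the other surface receptors, Tlr2 (ENSMUSG00000027995) lies on chromosome 3 from 83836272 to 83841767, Tlr4 (ENSMUSG00000039005) on chromosome 4 from 66827584 to 66930284 and Tlr5 (ENSMUSG00000079164) on chromosome 1 from 182954788 to 182976044. The endosomal receptors are Tlr3 (ENSMUSG00000031639, chromosome 8, 45395665 to 45411080), Tlr7 (ENSMUSG00000044583, chromosome X, 167304929 to 167330558), Tlr8 (ENSMUSG00000040522, chromosome X, 167242696 to 167264329) and Tlr9 (ENSMUSG00000045322, chromosome 9, 106222598 to 106226883). No other member shared more than 0.559% of its words with another gene. Myd88 overlaps Acaa1a on the opposite strand and Slc22a14 on its own, and Tlr3 overlaps Gm45542, and since the library protocol names no strand marking, reads from overlapping exons cannot be told apart.

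RefSeq promoters on GRCm38.p6 (300 bases, from 250 before to 50 after a transcript start) were found for 8 of the 10 members. Tlr4 and Tlr7 had no entry. Those of Tlr1, the only member called in the deposited scale, of Tlr2, its partner, and of Myd88, called under other scalings, are shown, with capitals where a searched motif matched on either strand. The motifs were GAGGAAGT, a form of the element bound by the myeloid factor PU.1, GGGANTTCC, a form of the NF-kB element, and GAAANNGAA, a form of the interferon-stimulated response element (ISRE).
Tlr1 (chr5:64933509-64933808, minus strand): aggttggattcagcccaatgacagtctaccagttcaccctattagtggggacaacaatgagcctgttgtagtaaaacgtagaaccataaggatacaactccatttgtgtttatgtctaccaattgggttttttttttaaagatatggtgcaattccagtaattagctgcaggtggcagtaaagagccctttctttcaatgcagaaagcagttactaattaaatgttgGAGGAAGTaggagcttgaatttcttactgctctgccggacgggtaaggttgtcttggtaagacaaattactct
Tlr2 (chr3:83841559-83841858, minus strand): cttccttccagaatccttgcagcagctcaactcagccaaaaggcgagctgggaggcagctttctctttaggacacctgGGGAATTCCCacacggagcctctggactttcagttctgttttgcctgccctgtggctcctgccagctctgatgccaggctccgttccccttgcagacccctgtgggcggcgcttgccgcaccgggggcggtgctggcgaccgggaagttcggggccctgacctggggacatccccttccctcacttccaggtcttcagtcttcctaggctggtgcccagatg
Myd88 (chr9:119339969-119340268, minus strand): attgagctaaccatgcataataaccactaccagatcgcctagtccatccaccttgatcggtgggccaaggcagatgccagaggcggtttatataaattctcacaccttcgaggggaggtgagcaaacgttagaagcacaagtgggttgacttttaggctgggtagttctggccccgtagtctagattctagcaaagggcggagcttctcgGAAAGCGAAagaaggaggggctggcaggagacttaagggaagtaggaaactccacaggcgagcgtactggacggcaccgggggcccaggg
The Tlr1 promoter held the PU.1 form at -23 to -16 from the start. The Tlr2 promoter held the NF-kB form on both strands, in overlapping matches from -172 to -163, and the Myd88 promoter held the ISRE form at -40 to -32. Among the other members, the ISRE form matched the Tlr8 promoter and the PU.1 form that of Tlr9, while the promoters of Tlr3, Tlr5 and Tlr6 at the start nearest to the annotated one held none of the forms. Over all 32851 RefSeq promoters the PU.1 form matched 3.20%, the NF-kB form 1.68% and the ISRE form 8.56%. These matches describe letters only.

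Myd88 had the highest median of the members in each group, and over all libraries Tlr5 to Tlr9 had the lowest. Over the 15 libraries, the median FPKM was 3.34 for Myd88, 1.51 for Tlr1, 0.765 for Tlr3, 0.565 for Tlr4, 0.341 for Tlr2, 0.0913 for Tlr7, 0.0641 for Tlr6 and 0.0167 for Tlr8, and it was 0 for Tlr5 and Tlr9. Neighbours in this order overlapped: Myd88 was above Tlr1 in 11 of 15 libraries, Tlr1 above Tlr3 in 11, Tlr3 above Tlr4 in 10 and Tlr4 above Tlr2 in 8. In the C group every Myd88 value lay above every Tlr1 value, whereas the values of these genes overlapped in the M and AA groups. The order below them differed between groups: in the M group Tlr7, with a median of 0.620, stood above Tlr2 at 0.441, and in the AA group Tlr2 at 0.752 stood above Tlr4 at 0.384, in each case with overlapping values. The read numbers behind these levels were small, since over all 15 libraries Tlr5 had 43 reads, Tlr9 156, Tlr6 207 and Tlr8 208, against 1837 for Tlr1 and 3200 for Myd88.

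**Figure D1:**
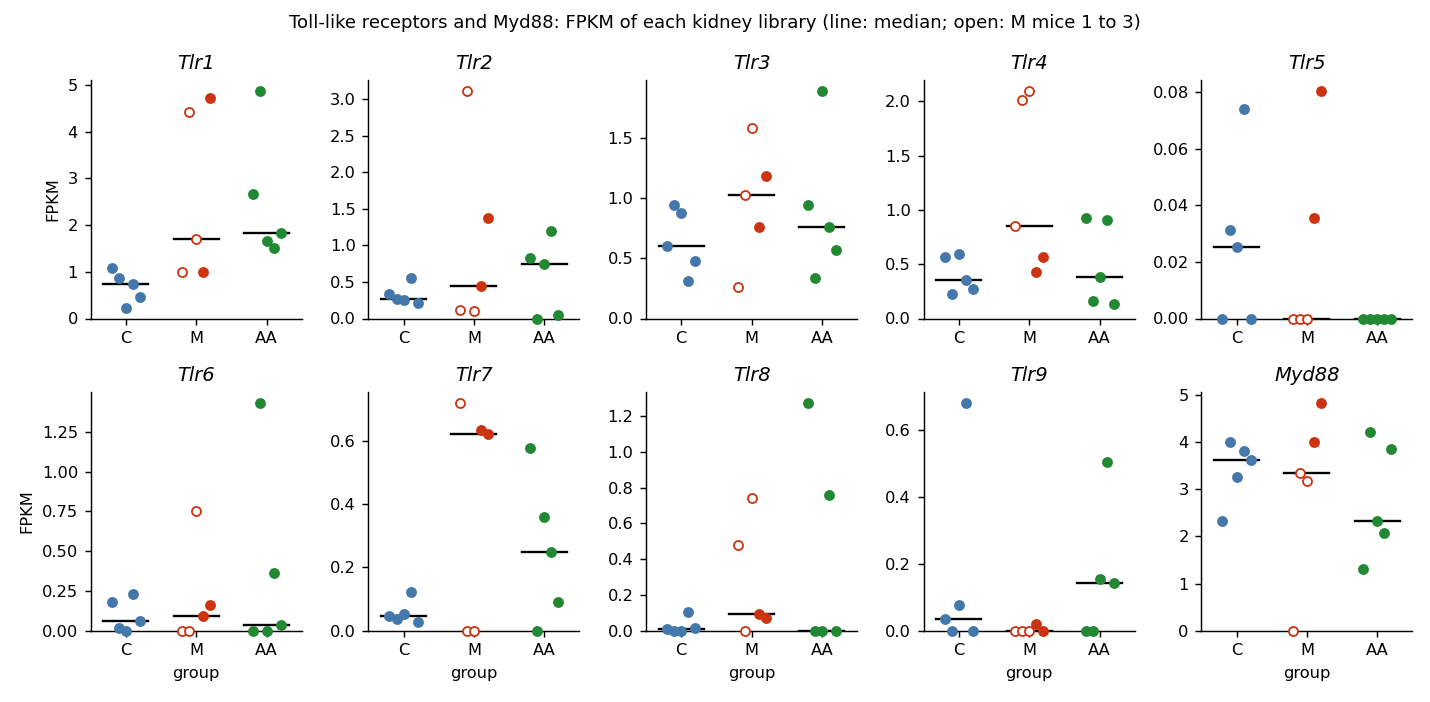
FPKM (vertical axis of each panel, linear and starting at 0) of each member in the C, M and AA groups; each point is 1 of 15 libraries, the line is the group median and open points are M mice 1 to 3. Tlr1 is at or under 1.09 in the C group and at or above 1.51 in the AA group, whereas the groups overlap for every other member.

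Tlr1, the lipopeptide co-receptor, showed the clearest separation. Its FPKM was 1.09, 0.877, 0.216, 0.742 and 0.464 in C mice 1 to 5, 1.00, 4.43, 1.69, 0.999 and 4.73 in M mice 1 to 5, and 2.68, 4.87, 1.65, 1.51 and 1.84 in AA mice 1 to 5. All AA libraries thus lay above all C libraries, while M mice 1 and 4 lay within the C range. The mean was 0.678 ± 0.343 (C), 2.57 ± 1.86 (M) and 2.51 ± 1.40 (AA) (SD, n = 5 each). The reads behind these values numbered 48 to 118 per C library, 39 to 494 per M library and 83 to 147 per AA library, so that the C and AA libraries overlapped in reads and separated in the deposited FPKM.

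Tlr2, the partner of Tlr1 and Tlr6, had its widest range in the M group. It was at 0.341, 0.264, 0.250, 0.549 and 0.218 in C mice 1 to 5 and at 0.114, 3.11, 0.0977, 0.441 and 1.38 in M mice 1 to 5. In AA mice 1 to 5 it was at 0.828, 0, 0.752, 1.19 and 0.0412. The M range enclosed the C range, and the library of AA mouse 2, the lowest for Tlr2, was the highest of its group for Tlr1 and Tlr6.

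Tlr6, the other partner of Tlr2, was at 0.184, 0.0200, 0, 0.230 and 0.0641 in C mice 1 to 5. It was at 0, 0, 0.751, 0.0915 and 0.163 in M mice 1 to 5 and at 0, 1.43, 0, 0.365 and 0.0333 in AA mice 1 to 5. A single library, M mouse 3 or AA mouse 2, therefore held the highest value of its group by a wide margin, and no fold is given against libraries listed at 0.

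Tlr4, the lipopolysaccharide receptor, had its highest values in M mice 2 and 3. Its FPKM was 0.566, 0.224, 0.591, 0.356 and 0.274 in C mice 1 to 5, 0.853, 2.02, 2.09, 0.430 and 0.565 in M mice 1 to 5, and 0.925, 0.160, 0.384, 0.910 and 0.134 in AA mice 1 to 5. M mice 4 and 5 lay within the C range, and the AA values ran from below to above it. The means were 0.402 ± 0.168, 1.19 ± 0.803 and 0.502 ± 0.391 (SD, n = 5 each) in the C, M and AA groups.

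Tlr5, the flagellin receptor, was barely detected. It had 0, 6, 8, 12 and 0 reads in C mice 1 to 5, 0 reads in M mice 1 to 3, 5 and 12 reads in M mice 4 and 5, and 0 reads in every AA library. A single Tlr5 read was worth 0.0101 to 0.0232 FPKM in the AA libraries and 0.00314 to 0.00650 FPKM in the C libraries, so the C values above 0, at 0.0251 to 0.0740 FPKM, were worth only a few reads in an AA library, and no difference was detectable at this depth.

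Of the nucleic acid receptors, Tlr3, the receptor for double-stranded RNA, was found in all 15 libraries. It was at 0.604, 0.941, 0.882, 0.312 and 0.476 in C mice 1 to 5, at 0.265, 1.03, 1.58, 0.760 and 1.19 in M mice 1 to 5 and at 0.945, 0.341, 1.89, 0.765 and 0.572 in AA mice 1 to 5, and all 3 ranges overlapped. Tlr7, a receptor for single-stranded RNA on the X chromosome, was at 0.0458, 0.0366, 0.0516, 0.123 and 0.0293 in C mice 1 to 5. It was at 0.718, 0, 0, 0.635 and 0.620 in M mice 1 to 5 and at 0.576, 0, 0.359, 0.250 and 0.0913 in AA mice 1 to 5. Wherever Tlr7 was detected in the M group it exceeded every C library, on 34 to 79 reads against 4 to 17, while M mice 2 and 3 had no read.

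Tlr8, the neighbour of Tlr7 on the X chromosome, was at 0.00868, 0, 0, 0.107 and 0.0167 in C mice 1 to 5. It was at 0.481, 0, 0.739, 0.0951 and 0.0715 in M mice 1 to 5 and at 1.27, 0, 0, 0.759 and 0 in AA mice 1 to 5. The highest AA library was thus accompanied by 3 AA libraries without a read. Tlr9, the receptor for unmethylated CpG DNA, was at 0.0358, 0, 0.0779, 0.680 and 0 in C mice 1 to 5, at 0, 0, 0, 0.0196 and 0 in M mice 1 to 5 and at 0, 0, 0.153, 0.503 and 0.143 in AA mice 1 to 5. C mouse 4 held 80 of the 102 Tlr9 reads of the C group, and it was also the highest C library for Tlr7 and Tlr8. In the same library the summed FPKM of 5 B cell markers was 20.4, against 0.740 to 2.96 in the other C libraries, and that of 12 macrophage markers was 123, against 18.7 to 31.1. It was also the highest C library for T cell markers (9.21 against 0.747 to 3.49) and neutrophil markers (11.5 against 1.41 to 3.35). The same held for plasmacytoid dendritic cell markers (14.9 against 5.56 to 13.3), so the higher sums were not particular to 1 cell type. Their part in the values of the 3 receptors was not tested.

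Myd88 (ENSMUSG00000032508, chromosome 9, 119335934 to 119341411), the shared adaptor, was at 2.33, 3.99, 3.25, 3.81 and 3.61 in C mice 1 to 5, at 0, 3.34, 3.17, 4.00 and 4.81 in M mice 1 to 5 and at 1.31, 4.22, 2.33, 2.08 and 3.86 in AA mice 1 to 5. Apart from M mouse 1, which is listed at 0, the M values lay in or just above the C range, and 3 of the 5 AA values lay below every C value, the closest of them at 2.328 against 2.333. M mouse 1 also had no read for Tlr5, Tlr6 and Tlr9.

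**Figure D2:**
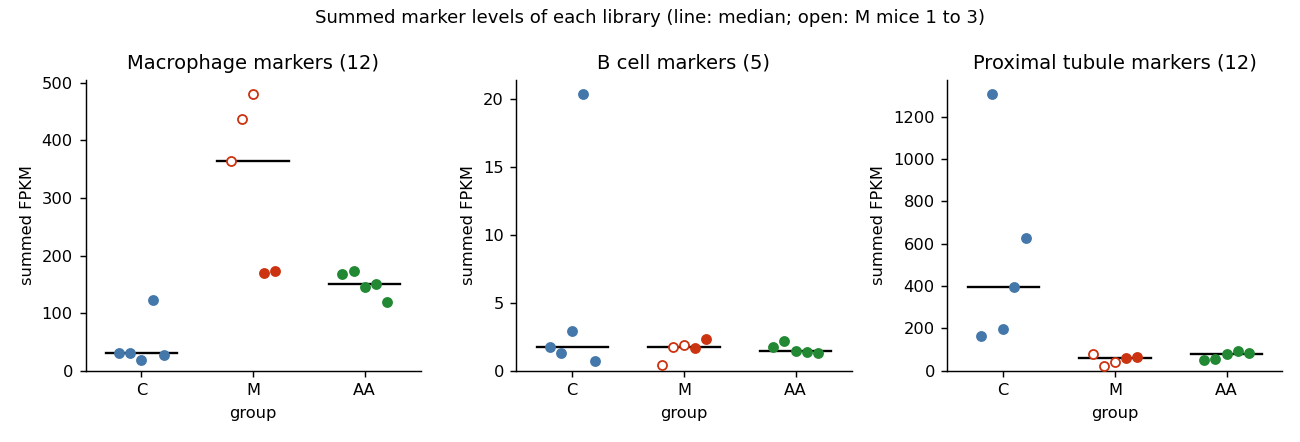
Summed FPKM (vertical axes, linear and starting at 0) of 12 macrophage, 5 B cell and 12 proximal tubule markers in each library by group; lines are group medians and open points M mice 1 to 3. The macrophage sum spans 18.7 to 123 (C), 171 to 481 (M) and 119 to 173 (AA), and C mouse 4 has the highest B cell sum at 20.4.

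To ask whether adenine injury changed the receptors, M vs. C was tested with limma, a linear model with variances moderated across genes, on log2(FPKM + 1). A gene entered when 5 or more of the 10 libraries listed it above 0, and it was called when its Benjamini-Hochberg adjusted p over every gene tested was 0.05 or lower and its log2 ratio (the log2 fold change, or difference of group means, on this scale, ± its standard error, with 5 libraries per group) was 1 or more in size. Of the 9 members tested, 0 were called, where 1.38% of all 21153 tested genes were, and 2 members had an unadjusted p under 0.05. With limma voom on the recovered reads, 0 members were called and 0 had an unadjusted p under 0.05. No member's M and C values were free of overlap, as 4.72% of all tested genes were. The median log2 ratio of the members was 0.28, beside -0.12 over all tested genes. That median over all genes depended on the scaling, being -0.58 when all libraries were brought to 1 common total (TPM), 0.24 with each library centred on its median and -1.63 with voom.

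The largest estimate was that of Tlr1, with a log2 ratio of 0.96 ± 0.36 (limma adjusted p = 0.219), and all 5 M libraries lay above the C median. It lay 1.08 above the median of all genes, and between 1.08 and 2.55 above it under the scalings tried with the same pseudocount or voom. For Tlr4 the log2 ratio was 0.58 ± 0.27 (limma adjusted p = 0.317), again with 5 of 5 M libraries above the C median. It was 0.89 (limma adjusted p = 0.0244) with M mice 1 to 3 alone, still under the fold threshold, and 0.10 (limma adjusted p = 0.884) with M mice 4 and 5 alone. Over all tested genes, these 2 fits, chosen after seeing the data, called 3404 of 17103 and 0 of 20868. For Tlr7 the log2 ratio was 0.36 ± 0.16 (limma adjusted p = 0.296) in all, 0.62 in M mice 4 and 5 alone and 0.18 in M mice 1 to 3 alone. M mouse 1 still held the highest Tlr7 value of the M group, at 0.718 FPKM, while M mice 2 and 3 were at 0. The log2 ratio was 0.28 for Tlr8, 0.42 for Tlr2 and 0.23 for Tlr3, with limma adjusted p of 0.333, 0.549 and 0.663, and the estimates of Tlr2, Tlr3 and Tlr6 turned negative with voom and those of Tlr3 and Tlr6 also with TPM. Myd88 had a log2 ratio of -0.31 ± 0.43 (95% interval -1.25 to 0.62, limma adjusted p = 0.728), which turned to 0.047 with centring, to 0.31 with M mice 4 and 5 alone and to 0.14 without M mouse 1, the library listed at 0, whereas it was -1.12 with TPM and -2.18 with voom. Tlr9 entered too few libraries and gave an exact two-sided permutation p of 0.167, where 5 against 5 can go no lower than 0.00794.

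To ask whether AA changed the receptors in injured kidneys, AA was compared with M in the same way. Of the 8 members tested, 0 were called, where 12.8% of all 19798 tested genes were, and 0 had an unadjusted p under 0.05 with limma or with voom. No member was free of overlap, as 13.2% of all tested genes were. The median log2 ratio of the members was -0.01, beside 0.17 over all tested genes (0.12 with TPM, -0.35 with centring and 0.70 with voom). The largest estimate was that of Tlr4, at -0.51 ± 0.30 (95% interval -1.16 to 0.14, limma adjusted p = 0.270), and 3 of the 5 AA libraries lay under the M median. It was -0.82 (limma adjusted p = 0.0606) against M mice 1 to 3 alone and -0.03 (limma adjusted p = 0.948) against M mice 4 and 5 alone. Under other settings it was -0.16 with library quality weights, -1.02 with centring, -1.14 with a pseudocount of 0.1 and -1.41 with voom, not called in any of them. Tlr1 had a log2 ratio of 0.06 with a 95% interval of -0.79 to 0.90, which turned to -0.06 with TPM and to -0.46 with centring. For Myd88 the log2 ratio was 0.04, with a 95% interval of -0.94 to 1.02, which turned to -0.12 with TPM and to -0.58 against M mice 4 and 5 alone. These intervals leave room for changes in either direction. Tlr5 and Tlr9 were below the filter and gave exact two-sided permutation p of 0.444 and 0.167.

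**Figure D3:**
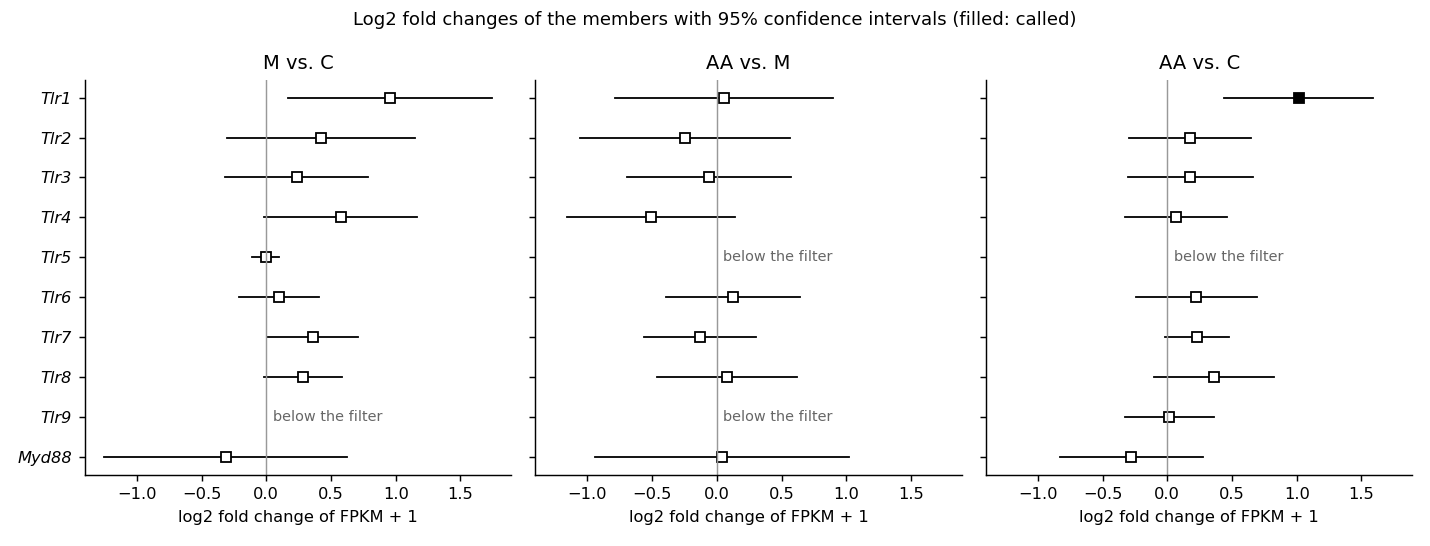
Log2 fold change of FPKM + 1 (horizontal axes) of each member in all 3 comparisons, with 95% confidence intervals from limma (n = 5 libraries per group); filled squares are called. Only Tlr1 in AA vs. C is filled, at 1.01, a call that is lost with TPM, quantile normalization, centring and voom.

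In AA vs. C, Tlr1 was the 1 member called of 9 tested, higher in the AA group, where 19.8% of all 21898 tested genes were called and 10.2% were called higher. Its log2 ratio was 1.01 ± 0.27 (95% interval 0.44 to 1.59, limma adjusted p = 0.0121), barely over the fold threshold, and all 5 AA libraries lay above all 5 C libraries, as 24.0% of all tested genes did in either direction. The direction held in all 21 alternatives, with log2 ratios of 0.53 to 1.75. The call did not hold under the scalings: the log2 ratio was 0.90 (limma adjusted p = 0.0130) with quantile normalization, 0.86 (limma adjusted p = 0.0182) with centring, 0.53 (limma adjusted p = 0.186) with TPM and 1.06 (limma adjusted p = 0.114) with voom. It was also lost without C mouse 3, C mouse 5, AA mouse 1 or AA mouse 2, when the log2 ratio was 0.90, 0.97, 0.98 and 0.81, and with library quality weights. The median of all genes was 0.09 in AA vs. C, -0.39 with TPM and -0.75 with voom, and Tlr1 lay 0.92 above this median both in the deposited scale and with TPM.

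The other members did not pass. Tlr7 had a log2 ratio of 0.23 ± 0.11 (limma adjusted p = 0.134) and 4 of 5 AA libraries above the C median, and it stayed positive in all 20 alternatives. Tlr8 was at 0.36, Tlr6 at 0.22, Tlr3 at 0.18, Tlr2 at 0.17, Tlr4 at 0.07 and Tlr9 at 0.02 on the same log2 scale, with limma adjusted p from 0.199 to 0.945, and of these Tlr2, Tlr3, Tlr4 and Tlr9 turned negative with TPM and Tlr6 with voom. Myd88 had a log2 ratio of -0.28 ± 0.25 (95% interval -0.83 to 0.27, limma adjusted p = 0.405). With TPM it was called lower, at -1.24 (limma adjusted p = 0.00892), and likewise with voom, at -1.36 (limma adjusted p = 0.0218). Tlr5, listed at 0 in every AA library, was below the filter and gave an exact two-sided permutation p of 0.167. The median log2 ratio of the 9 members was 0.18, beside 0.09 over all tested genes.

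**Figure D4:**
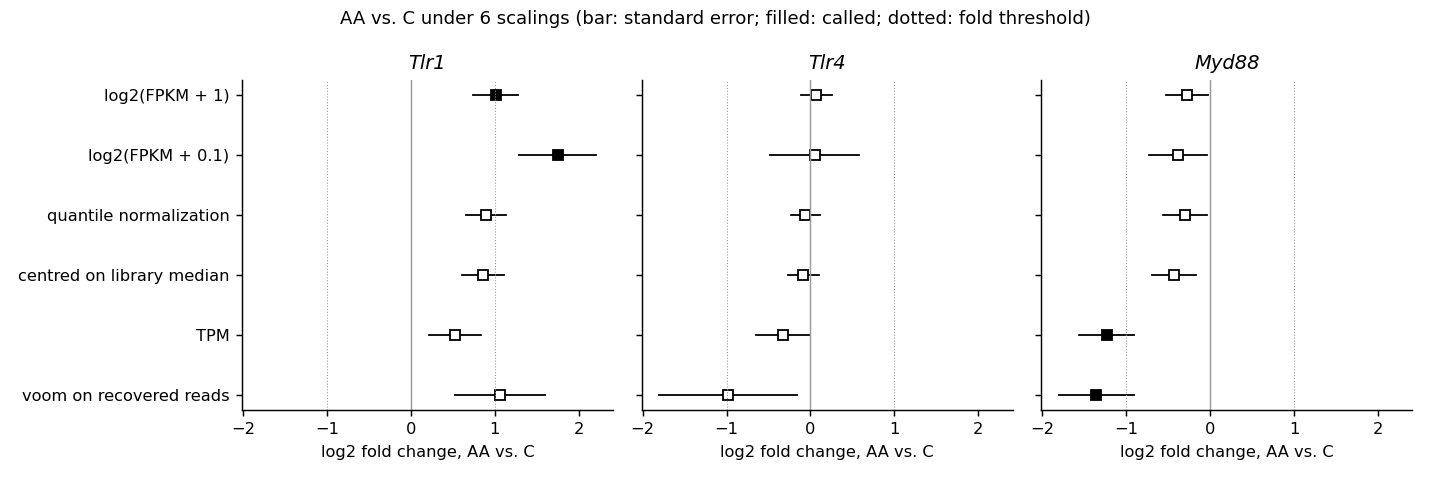
Log2 fold change in AA vs. C (horizontal axes) of Tlr1, Tlr4 and Myd88 under 6 scalings (rows); squares are limma estimates from 5 libraries per group, bars the standard error, filled squares are called and dotted lines mark the fold threshold of 1. Tlr1 stays above 0 and is called with the 2 pseudocounts only, Tlr4 changes sign, and Myd88 is called lower with TPM and voom only.

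The mouse receptors outside the set were also low. Tlr11, Tlr12 and Tlr13, which sense profilin and bacterial RNA, had 0 calls with limma or voom in any comparison and 0 with an unadjusted p under 0.05, among the 2 that passed the filter. Tlr12 ranged from 0 to 3.61 FPKM and Tlr13 from 0 to 2.18 over the 15 libraries, and Tlr11 did not exceed 0.294.

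Of all tested genes, 1.38% were called in M vs. C, 12.8% in AA vs. M and 19.8% in AA vs. C. Among 9 co-receptors and chaperones, Lbp, the plasma protein that hands lipopolysaccharide to Cd14, was the only gene called. Its FPKM ranged over 0.443 to 1.65 (C), 2.14 to 5.67 (M) and 3.41 to 9.78 (AA), with no overlap between C and either other group. The log2 ratio was 1.36 ± 0.29 in M vs. C (limma adjusted p = 0.0405) and 1.99 ± 0.27 in AA vs. C (limma adjusted p = 0.000448). The call in AA vs. C held in all 21 alternatives, whereas that in M vs. C was lost in 15 of 23, among them TPM and voom. With M mice 4 and 5 alone its log2 ratio was 1.60 (limma adjusted p = 0.102), in a fit that called 0 of 20868 genes. The other 8 genes of this list were not called in the deposited scale. With TPM and with voom, Cd36 was called lower in M vs. C and Unc93b1 and Cnpy3 lower in AA vs. C, with centring Unc93b1 was called lower in AA vs. M, and with a pseudocount of 0.1 Cd180 and Ly86 were called higher in AA vs. C.

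The 4 other adaptors with a TIR domain, Tirap, Ticam1, Ticam2 and Sarm1, had 0 calls with limma in each comparison, and the number at an unadjusted p under 0.05 was 0 in M vs. C, 2 in AA vs. M and 3 in AA vs. C. With voom and with TPM, Ticam1 was called lower in AA vs. C. Ticam1, the adaptor of Tlr3, was at 0 in M mice 1 and 2 and AA mice 1 and 3, and ranged up to 2.49 FPKM in AA mouse 5.

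Of 14 kinases and ubiquitin ligases below the adaptors, 1 was called, Tab1, which activates the kinase Map3k7, lower in AA vs. C. Of 8 transcription factors, Irf3, the factor downstream of Ticam1, was called lower in AA vs. C, and Irf7, the factor downstream of Myd88 in the endosomal branch, lower in AA vs. M. Of 8 inhibitors, Sigirr, a receptor that dampens Toll-like receptor signalling, was called lower in AA vs. C. Over all tested genes, 12.8% were called in AA vs. M and 19.8% in AA vs. C. The log2 ratios in AA vs. C were -2.61 ± 0.29 (limma adjusted p = 0.000209) for Irf3, -2.18 ± 0.30 (limma adjusted p = 0.000486) for Sigirr and -2.004 ± 0.28 (limma adjusted p = 0.000562) for Tab1. These 3 calls held in all 21 alternatives. The counts of the lists did not: in AA vs. C, 5 of 14 kinases and ligases were called lower with TPM (Irak1, Map3k7, Tab1, Tbk1 and Ikbkg) and 7 with voom, and 4 of 8 transcription factors with either (Nfkb2, Rela, Irf3 and Irf7). Over all tested genes, 5923 of 21898 were called lower with TPM and 6987 of 21888 with voom. The FPKM of Irf3 was 11.3, 21.1, 7.98, 9.79 and 15.9 in C mice 1 to 5, 0.651, 0.667, 0.300, 9.27 and 14.6 in M mice 1 to 5 and 0.555, 0.999, 0.891, 2.32 and 1.73 in AA mice 1 to 5. M mice 4 and 5 thus lay within the C range, and M mice 1 to 3 below every C library. Sigirr was likewise at 3.83 and 4.38 in M mice 4 and 5 and at 0 to 1.48 in M mice 1 to 3, and Tab1 at 6.33 and 7.62 against 0.701 to 1.23. In M vs. C with M mice 1 to 3 alone, all 3 genes were called lower, as 2705 of 17103 tested genes were. With M mice 4 and 5 alone, where 0 of 20868 genes were called, none of the 3 was. Mitochondrial genes held 84.8 to 86.8% of the reads in M mice 1 to 3 and 72.9 and 64.0% in M mice 4 and 5, and the part of this share in the values was not tested. For Irf7 the log2 ratio in AA vs. M was -1.34 ± 0.37 (limma adjusted p = 0.0226), a call lost in 4 of 23 alternatives, among them TPM, voom and M mice 1 to 3 alone (limma adjusted p of 0.166, 0.128 and 0.0634).

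Of 7 proteins reported as endogenous ligands, Bgn and Tnc, both matrix proteins, were called higher in AA vs. C and S100a9, a granulocyte protein, lower. Of all genes tested in that comparison, 19.8% were called. Bgn spanned 31.7 to 84.5 FPKM in C mice and 146 to 247 in AA mice, with a log2 ratio of 1.58 ± 0.30 (limma adjusted p = 0.00236), and was not called with TPM (limma adjusted p = 0.218) and voom, where its log2 ratio was 0.49 and 0.67. Tnc had a log2 ratio of 1.07 ± 0.37 (limma adjusted p = 0.0426), a call lost in 14 of 21 alternatives. S100a9, which is also in the list of neutrophil markers, had -1.27 ± 0.41 (limma adjusted p = 0.0308), lost in 8 of 21. All 6 fibroblast markers tested were called higher in AA vs. C in the deposited scale, as 10.2% of all tested genes were. These 6 calls were not repeated under TPM, voom or the other alternatives. These markers summed to 39.0 to 98.5 FPKM in C mice and 219 to 386 in AA mice. Their part in the Bgn and Tnc values was not tested.

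Of 20 target genes induced by these receptors, 18 passed the filter in M vs. C, where 1.38% of all tested genes were called. Of the targets 1 was called, Ccl5, a T cell chemokine. It was higher in M mice, at a log2 ratio of 1.89 ± 0.34 (limma adjusted p = 0.0233), a call lost in 11 of 23 alternatives. The count of targets called in M vs. C was 5 with centring (Il1b, Ccl2, Ccl5, Cxcl2 and Vcam1, all higher), 4 with all 15 libraries in 1 fit and 0 with voom. Over all tested genes these settings called 339, 786 and 1869. In AA vs. M, 17 targets were tested, where 12.8% of all tested genes were called. Of these targets Il6 and Il12b, both cytokines, were called higher and Il1b and Ccl5 lower. Ccl5 was at 0.467 to 2.46 FPKM in C mice, at 5.57, 7.97, 6.75, 2.77 and 8.48 in M mice 1 to 5 and at 1.68, 1.62, 0.139, 0.607 and 4.08 in AA mice 1 to 5, so that all M libraries lay above all C libraries and 1 AA library lay within the M range. Its log2 ratio in AA vs. M was -1.59 ± 0.41 (limma adjusted p = 0.0179), lost in 4 of 23 alternatives. For Il1b, a cytokine released after inflammasome cleavage, it was -1.30 ± 0.40 (limma adjusted p = 0.0397), lost in 13 of 23. In AA vs. C, Il6, Il12b, Cxcl10 and Vcam1 of 17 tested targets were called higher and 0 lower. Of all genes tested there, 19.8% were called and 10.2% were called higher. Cxcl10, an interferon-induced chemokine, had a log2 ratio of 1.11 ± 0.28 (limma adjusted p = 0.0105), lost in 4 of 21 alternatives, and Vcam1, an adhesion molecule, 1.04 ± 0.31 (limma adjusted p = 0.0207), lost in 8 of 21. Il12b, a subunit of interleukins made by myeloid cells, was at 0.0253 to 0.361 FPKM in the C group, at 0 in M mice 1 to 3, at 0.312 and 0.798 in M mice 4 and 5 and at 1.39 to 2.58 in the AA group, with a log2 ratio of 1.28 ± 0.18 in AA vs. C (limma adjusted p = 0.000491) that was called in all 21 alternatives. In AA vs. M it had 1.27 ± 0.27 (limma adjusted p = 0.00688), lost in 4 of 23 alternatives. Il6 spanned 0 to 0.359 FPKM (C), 0 to 0.488 (M) and 0.522 to 3.33 (AA). Its log2 ratio was 1.10 in AA vs. C (limma adjusted p = 0.0103) and 1.13 in AA vs. M (limma adjusted p = 0.0226), and these calls were lost in 5 of 20 and 11 of 22 alternatives. Against M mice 4 and 5 alone, neither Il6 (limma adjusted p = 0.223) nor Il12b (limma adjusted p = 0.0870) was called. Ifnb1, an interferon induced through Tlr3 and Tlr4 and named here after its values were seen, was listed at 0 in all 15 libraries.

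**Figure D5:**
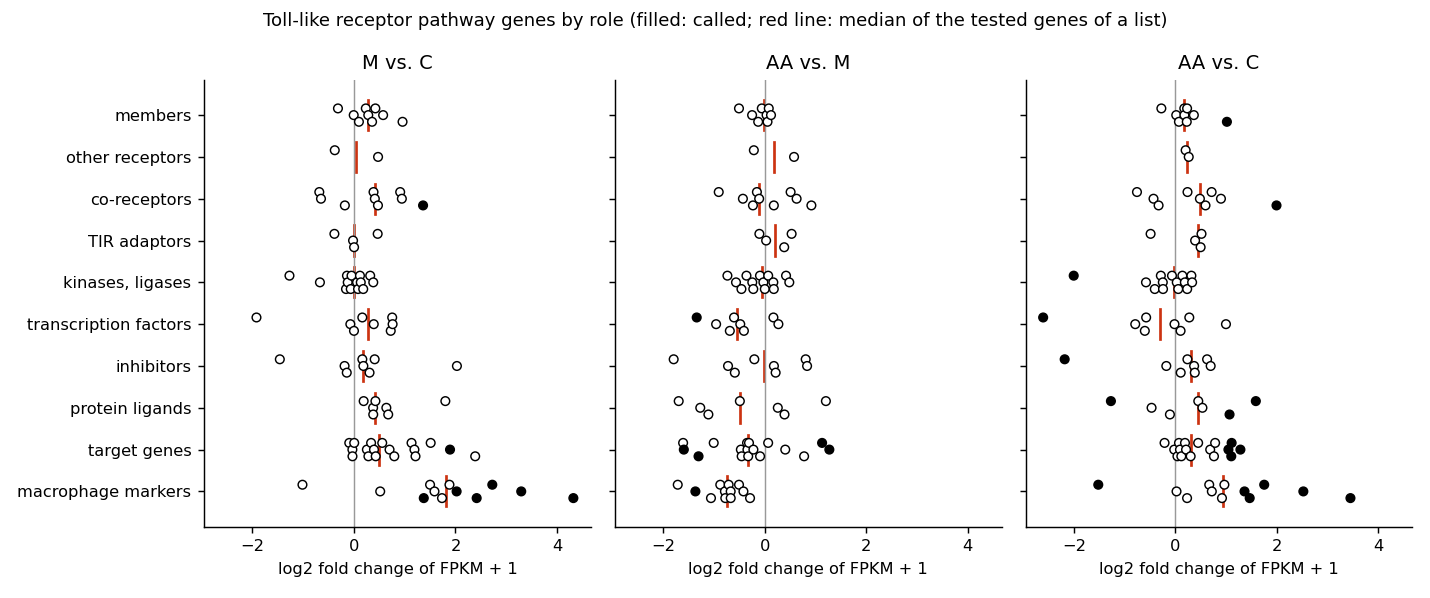
Log2 fold change of FPKM + 1 (horizontal axes) in the 3 comparisons of the tested genes of each list (rows), with 5 libraries per group; filled points are called with limma, red lines are list medians, and points are spread vertically for legibility. In this scale at most 1 gene per list is called in any comparison in the lists of kinases, factors and inhibitors. Irf3, Sigirr and Tab1 lie at -2.004 or lower in AA vs. C, and 6 of 12 macrophage markers are called higher in M vs. C.

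Macrophages are known to express many of these receptors, and their markers moved with the M group. In M vs. C, 6 of 12 were called higher (Lyz2, C1qb, C1qc, Ctss, Aif1 and Fcgr1) and 0 lower, in AA vs. M 0 higher and 1 lower (C1qb), and in AA vs. C 5 higher and 1 lower (Csf1r). Of all tested genes, 1.38%, 12.8% and 19.8% were called in these comparisons. The summed FPKM of the 12 markers was 364, 438 and 481 in M mice 1 to 3 and 171 and 174 in M mice 4 and 5. Lyz2 alone was at 241.2, 289.2 and 306.5 in M mice 1 to 3 and at 70.65 and 60.55 in M mice 4 and 5. Adgre1, C1qb, C1qc, Mrc1 and Ctss were also higher in M mice 1 to 3. Csf1r and C1qa were lower there, Csf1r at 2.31 to 3.74 against 7.89 and 8.28, and the other markers overlapped. With M mice 4 and 5 alone, 0 of the 12 were called in M vs. C, in a fit that called 0 genes in all, and their median log2 ratio was 1.79, against 1.81 with all M mice. With TPM or voom on all M mice 4 were called higher and Csf1r lower. None of the 12 was at 0 throughout a group. The part of these cells in the values of Tlr1 and Tlr4 was not tested. T cell markers summed to 0.747 to 9.21 (C), 1.74 to 14.3 (M) and 10.1 to 19.6 (AA) FPKM, and neutrophil markers to 1.41 to 11.5, 2.05 to 40.1 and 0.500 to 10.8, with Retnlg and Cxcr2 at 0 in every AA library. Of the 6 T cell markers, Cd3e and Cd3g were the ones called higher in AA vs. M and AA vs. C. Cd3g alone was at 6.27 to 15.8 FPKM in AA mice, while Cd4 was at 0 in 3 and Cd3d in 4 of the AA libraries. Plasmacytoid dendritic cell markers summed to 5.56 to 14.9, 19.1 to 27.9 and 9.88 to 17.5 FPKM, and endothelial markers to 20.1 to 35.9, 14.2 to 27.8 and 9.16 to 17.1, in the C, M and AA groups. Of the 5 plasmacytoid dendritic cell markers, 4 had a log2 ratio above 0 in M vs. C and 0 were called. Ccr9 was the only marker of this list called in the other comparisons, higher in both. Its log2 ratio was 1.27 ± 0.28 in AA vs. M (limma adjusted p = 0.00889) and 1.085 ± 0.23 in AA vs. C (limma adjusted p = 0.00429). The T cell and plasmacytoid dendritic cell calls were made in the deposited scale only. Bst2 alone was at 13.7 to 23.8 FPKM in M mice, while Siglech was at 0 in M mice 1 and 2 and Ccr9 in M mice 1 to 3.

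For the members above 0 in at least 12 of 15 libraries, the genes with the most similar order of libraries were sought among 14300 genes, by the mean absolute difference of ranks over the 15 libraries. They were Cdk14, Ptn and Rap2b for Tlr1 (1.33 to 1.60 ranks, where the median gene differed by 4.93), Cdca4, Amotl1 and Mark1 for Tlr2 (1.67 to 1.87), Lmln, Lrrc57 and Arl14ep for Tlr3 (1.87 to 2.0) and Rnf34, Rgmb and the pseudogene Gm7901 for Tlr4 (1.20 to 1.53). For Tlr7 they were Siglece, Ddah2 and the noncoding Gm45605 (1.33 to 1.60), and for Myd88 Fiz1, H2-Q6 and U2surp (1.60 to 1.73). No member was among the 3 nearest genes of another. Genes picked as the nearest of 14300 lie below the median difference by selection, and shared regulation was not tested.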

How the data were processed

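The authors purified poly-A RNA, made paired-end libraries, and, per the labels, cleaned reads with fastp, aligned them to mm10 with HISAT2 2.0.5 and counted them on genes with featureCounts 1.5.0-p3; they deposited FPKM, which were used without rescaling unless stated. How reads shared by several genes were counted is not given in the sources used here. Symbols, positions and lengths came from GENCODE M21 (37 identifiers without a match). Reads were recovered as whole multiples of each library's smallest step, and 97.8 to 99.0% of low values lay within 0.05 of a whole number. Whether a step is a read or a pair is unknown, and the library total that this implies for the FPKM differs from the reads on genes. The implied total was 32117618 to 66432551 (C), 10449392 to 31212795 (M) and 9018791 to 20581938 (AA). The reads on genes numbered 18165593 to 28884427, 13647020 to 23914162 and 13878834 to 18420278. A single read of a gene was thus worth more FPKM in every AA library than in any C library. The part of this in the differences from the C group was not tested. The p-values measure the spread between 5 libraries per group.

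Each pair of the 3 groups was compared with limma 3.58.1 in R 4.3.3 (variance trend, only the 10 libraries compared, no block, pseudocount 1) because FPKM values are not counts. The fit was checked on simulated data modelled on genes above 0 in every C library, with no difference in scale between groups. That check does not cover members listed at 0 in several libraries or differences in library total. Members below the filter were tested with exact permutation tests (Python 3.11.15, scipy 1.17.1, numpy 2.4.6, pandas 2.3.3; figures with matplotlib 3.10.9). The alternatives were a pseudocount of 0.1, filters on low values, TPM, quantile normalization, centring, all 15 libraries in 1 fit, quality weights, a replicate block and each library left out. Voom on recovered reads, protein-coding genes only, and subsets of the M mice were chosen after seeing the data, as were the motifs. The members and gene lists were chosen with earlier results of these data known. Named are all members, called genes of each list (at most 6, by size of change, or up to 3 by mean FPKM where none was called), and the 3 nearest genes. Groups come from GEO's labels.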

Additional observations from a re-analysis of the deposited data

Results flagged for a closer look

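Of 29 sets of 5 libraries in which a member's values varied, 6 had a library separated from the other 4 by more than Dixon's critical value of 0.71. The rule's rate of about 1 in 20 groups by chance holds for normal values and not for these, of which many are 0 or close to it. In the C group all 3 were the highest value and in mouse 4, with FPKM of 0.123 for Tlr7, 0.107 for Tlr8 and 0.680 for Tlr9. In the M group they were Tlr6 in mouse 3, at 0.751, and Tlr9 in mouse 4, at 0.0196, which rests on 2 reads beside 4 libraries at 0. In the AA group it was Tlr6 in mouse 2, at 1.43.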

How the results depend on the processing

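Values are log2 ratios. In M vs. C, the sign turned with TPM for Tlr3 (-0.23) and Tlr6 (-0.0020), with quantile normalization for Tlr5 (0.090), with centring for Tlr5 (0.36) and Myd88 (0.047), with quality weights for Tlr5 (0.013), with M mice 4 and 5 alone for Tlr5 (0.044) and Myd88 (0.31), and with voom for Tlr2 (-0.23), Tlr3 (-0.42) and Tlr6 (-0.27). In AA vs. M, it turned with a pseudocount of 0.1 for Tlr8 (-0.094), with TPM for Tlr1 (-0.064) and Myd88 (-0.12), with quantile normalization for Tlr1 (-0.24), Tlr6 (-0.13), Tlr8 (-0.23) and Myd88 (-0.24), with centring for Tlr1 (-0.46), Tlr6 (-0.39), Tlr8 (-0.43) and Myd88 (-0.48), with quality weights for Tlr3 (0.015) and Myd88 (-0.30), with M mice 4 and 5 alone for Tlr1 (-0.024) and Myd88 (-0.58), with M mice 1 to 3 alone for Tlr7 (0.049), and with voom for Tlr7 (0.25) and Tlr8 (-0.95). In AA vs. C, it turned with TPM for Tlr2 (-0.10), Tlr3 (-0.34), Tlr4 (-0.33) and Tlr9 (-0.061), with quantile normalization for Tlr4 (-0.061) and Tlr9 (-0.035), with centring for Tlr4 (-0.085) and Tlr9 (-0.14), and with voom for Tlr2 (-1.36), Tlr3 (-0.67), Tlr4 (-0.98) and Tlr6 (-0.15). None of these members was called, and the cause was not tested.

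Leaving out each library in turn gave, among members whose sign turned, -0.013 to 0.0038 for Tlr5, -0.046 to 0.16 for Tlr6 and -0.50 to 0.14 for Myd88 in M vs. C. In AA vs. M it gave -0.15 to 0.27 for Tlr1, -0.42 to 0.057 for Tlr2, -0.22 to 0.057 for Tlr3, -0.11 to 0.27 for Tlr6, -0.12 to 0.20 for Tlr8 and -0.41 to 0.22 for Myd88, and in AA vs. C -0.030 to 0.16 for Tlr4, -0.0080 to 0.31 for Tlr6 and -0.082 to 0.16 for Tlr9.

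The number of members called in AA vs. C, 1, became 0 with quantile normalization, 0 with centring and 0 with quality weights, and 0 to 1 with a library left out. With TPM or voom it stayed at 1, with Myd88 lower in place of Tlr1. With the replicate block, 0 members were called in M vs. C, 0 in AA vs. M and 1 in AA vs. C, as without it, and 152 genes in M vs. C against 291 without it. The numbers did not pair the samples: deviations of same-numbered libraries correlated at -0.227 to 0.174. Genes called in M vs. C fell to 33 without the filter and rose to 1609 with TPM and 1869 with voom, in a range of 4 to 954 with a library left out. They numbered 448 at a mean FPKM of 1 or more and 786 with all 15 libraries in 1 fit, 188 with quality weights, 0 with M mice 4 and 5 alone and 3404 with M mice 1 to 3 alone. The share called higher was 19.6%, 1.93% with TPM and 38.9% with centring. In AA vs. M they went from 2533 to 422 with TPM, 1703 with voom, 1656 with M mice 4 and 5 alone and 745 among protein-coding genes, and the share called higher from 91.6% to 69.5% with quantile normalization, 43.1% with centring and 27.8% with M mice 4 and 5 alone. In AA vs. C they went from 4346 to 7474 with a pseudocount of 0.1, 6785 with TPM, 8590 with voom and 2672 among protein-coding genes, and the share called higher from 51.6% to 12.7% with TPM, 18.7% with voom and 40.1% with centring. Tlr5, Tlr6, Tlr8 and Tlr9 rest on few reads, which limits what could be detected.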
